A study of Mus musculus with 6 samples.

Results

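Imprinted genes are genes of which the cell reads mainly the copy from 1 parent. The 34 established mouse imprinted genes described here were taken by name and not by their values, and 32 of them were among the 38715 genes with deposited values. Magel2 and Rtl1 were not analysed here. By the usual assignment, 19 of the 32 are expressed from the paternal copy and 11 from the maternal copy. Gnas and Grb10 make different products from either copy or switch parent between tissues, and they were kept as a mixed class. The data were RNA-seq of mouse testis, with 3 libraries titled Control and 3 titled Middle. Besides controls the study names only mice given MES, an agent known here by that abbreviation, so the Middle libraries were taken to be theirs. The title dates the exposure to early life, while genotype, strain, age, dose and route were not stated, nor whether each library is 1 animal, and p-values therefore reflect the spread among libraries alone.

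An imprint is DNA methylation laid down at a control region in either the egg or the sperm lineage and copied in the cells of the body after fertilization. Neighbouring genes that share 1 control region form a cluster, in which a non-coding RNA or an insulator silences genes in cis. Germ cells erase the imprints they inherited and, in the male, write the paternal pattern before meiosis. In a mature testis most cells are germ cells, whose imprints are not those of the body's other cells. The reads were not assigned to alleles, so the values below are summed levels of both copies. In bulk tissue, fewer cells of a type and less RNA per cell cannot be told apart.

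Depth ranged from 38820385 to 58389391 gene-assigned reads per library. The spermatid markers fixed as a list summed to 25990.6 to 30654.1 RPKM per library (reads scaled by gene length and library size), and those of Leydig, Sertoli and peritubular cells were present in every library. Middle replicate 1 stood apart: on the first principal component, which held 50.1% of the variance, it lay at 27.0. Middle replicates 2 and 3 lay at 0.97 and 4.90 and the Control libraries between -15.01 and -6.48, so the groups did not overlap on it either. Levels also followed transcript GC content to a different degree in each library: across genes, which are not independent replicates, the rank correlation of GC content with the library's departure from the average was 0.45 in Middle replicate 1, -0.07 to 0.03 in the other Middle libraries and -0.29 to -0.22 in Control. The trend and the exposure cannot be told apart. For the tested imprinted genes, values without Middle replicate 1 and with the trend removed are given beside results that they move by over 1.5 times. Genes of the other lists are given without these 2 alternatives.

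Of the imprinted genes, as of all genes, a minority reached the level taken here as expressed. The level required for testing, 1 RPKM in the mean of either group, was reached by 11 of the 32 genes: the paternally expressed Zrsr1, Zdbf2, Snrpn, Peg10 and Igf2, the maternally expressed Cdkn1c, Ube3a, H19 and Dcn, and the mixed Gnas and Grb10. Of all genes, 38.8% reached that level. A further 20 genes were low, with a mean over all libraries between 0.00822 and 0.897 RPKM, and had more reads than a count of 0 allows (3 fragments, or 6 reads) in at least 1 library. Only Zim1 was never above that limit, with at most 6 reads in a library, and it was not detectable at this depth. The most abundant were Gnas at a mean of 7.55 RPKM, Cdkn1c at 7.22 and Zrsr1 at 6.22.

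**Figure D1:**
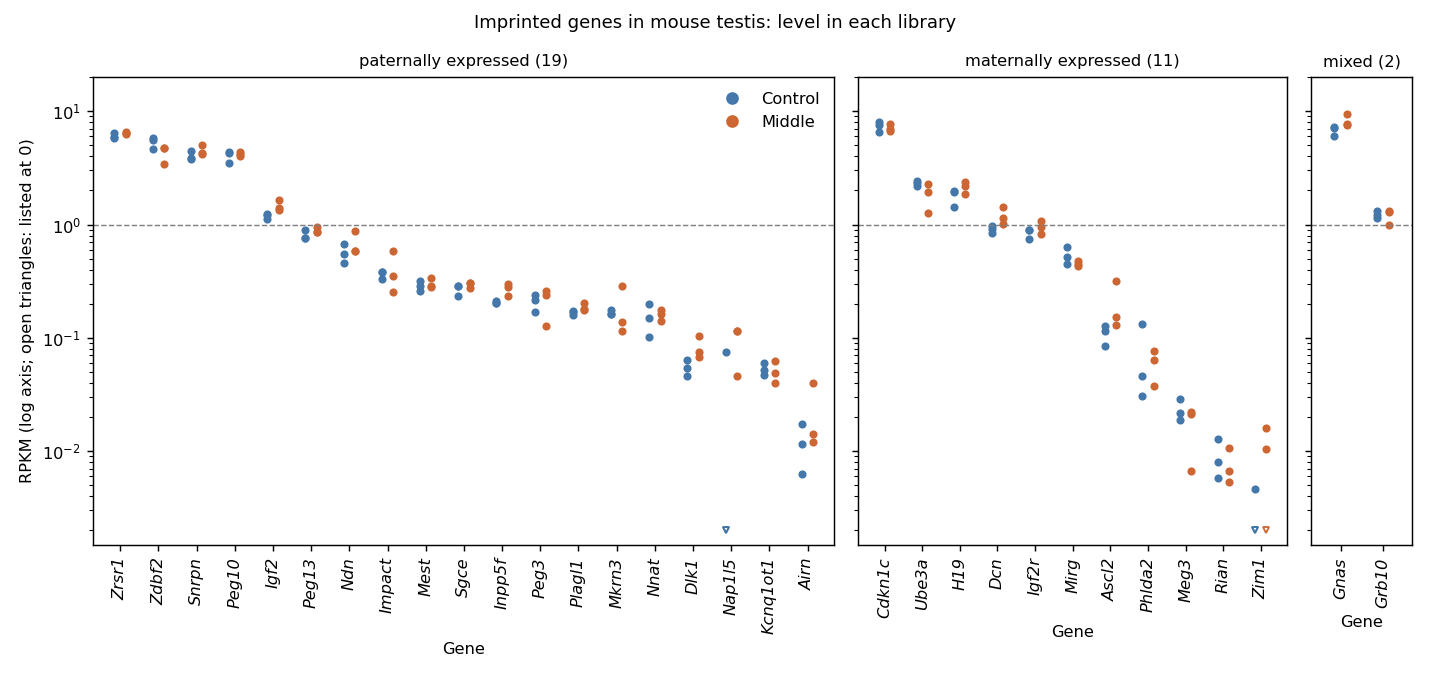
Level of each of the 32 imprinted genes in RPKM on a log axis, with 3 Control libraries (blue) and 3 Middle libraries (orange) per gene, ordered by mean within each parental class. The dashed line marks 1 RPKM, open triangles mark libraries listed at 0, and 11 genes reach the line in the mean of at least 1 group.

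None of the 11 expressed genes differed past the threshold (adjusted p under 0.05) in Middle against Control. The test called 8 of 15040 genes (0.0532%), of which 1 was higher in Middle (0.00665%) and 7 lower (0.0465%), and none was imprinted. An unadjusted p under 0.05 was reached by 1 imprinted gene, Gnas, where 20.7% of all tested genes reached it (limma). With all 3 Middle libraries above all 3 Control libraries there were 3 of the 11 genes, Gnas, Igf2 and Dcn, where 17.9% of all tested genes lay that way, and none lay wholly below, where 11.4% did. Of the fold changes 7 were above 0 and 4 below, with a median log2 fold change of 0.07 beside 0.03 over all tested genes. Dcn reached the level for testing only in Middle, so its place in these counts rests on the group where it was higher. Each fold change was taken on log2(RPKM + 1), a scale that understates changes of low genes.

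The first cluster to consider is that of Igf2 and H19 on chromosome 7, where an insulator that binds CTCF decides between the growth factor and the non-coding RNA. Igf2 (chromosome 7, 142204503 to 142220553 in GRCm39), a fetal growth factor that signals through the IGF1 and insulin receptors, was at 1.13, 1.21 and 1.23 RPKM in Control replicates 1 to 3 and at 1.64, 1.34 and 1.41 in Middle replicates 1 to 3. Every Middle library lay above every Control library, with Middle replicate 1 the highest. The means were 1.19 ± 0.05 and 1.46 ± 0.16 (SD, n = 3 each), a ratio of 1.23, and the log2 fold change of 0.17 (SE 0.08, 95% interval -0.01 to 0.35) did not pass (adjusted p = 0.264, limma). With the GC trend removed it was 0.09. Igf2 shares 62.8% of its exon bases with Gm49394, a gene model on the same strand that held 2266 reads in all beside 2278 for Igf2, so these reads are not 2 separate measurements.

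H19 (chromosome 7, 142129262 to 142131917), a non-coding RNA whose first exon carries a miRNA, was at 1.44, 1.99 and 1.92 RPKM in Control and at 2.19, 1.86 and 2.36 in Middle replicates 1 to 3. Middle replicate 2 lay below 2 Control libraries, so the groups overlapped. The log2 fold change was 0.18 (SE 0.11, adjusted p = 0.354, limma), and 0.10 with the GC trend removed. Without Control replicate 1, the lowest library, it was 0.08. Neither gene of this cluster passed the test.

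The hairpin of miR-675 lies wholly inside H19 and had its own row, with 11 to 29 reads per library. The library kit is one for messenger RNA, so these reads do not measure the mature miRNA. The same holds for miR-410 inside Mirg, the maternally expressed host transcript of a miRNA array on chromosome 12, with 10 to 17 reads per library. The mature arms of both are shown because these were the only miRNA hairpins inside exons of the imprinted genes with 10 or more reads in every library. The sequences are from RefSeq (GRCm38.p6), 5′ to 3′, with the seed (bases 2 to 8) in capitals.
mmu-miR-675-5p: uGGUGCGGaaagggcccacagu
mmu-miR-675-3p: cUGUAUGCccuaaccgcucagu
mmu-miR-410-5p: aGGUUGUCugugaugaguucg
mmu-miR-410-3p: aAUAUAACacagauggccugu
The 4 seeds differ from one another, so these arms form no shared seed family.

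Grb10 and Igf2r limit growth signals. Grb10 (chromosome 11, 11880508 to 11988683), an adaptor that dampens insulin and IGF receptors, was at 1.313, 1.202 and 1.139 RPKM in Control and at 0.999, 1.283 and 1.314 in Middle. Its lowest library was Middle replicate 1 and its log2 fold change was -0.02 (SE 0.09, 95% interval -0.22 to 0.19, adjusted p = 0.928, limma), or 0.05 without that library and 0.02 without Control replicate 1. Igf2r, the receptor that clears IGF2 and sends it to the lysosome, lay just under the level for testing at 0.742, 0.891 and 0.902 RPKM in Control and 0.953, 1.07 and 0.826 in Middle. Its groups overlapped, with a ratio of means of 1.12. Airn, the paternal antisense RNA that silences Igf2r in the body, had 2 to 11 reads per library, above the limit of 6 reads in 1 library.

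Cdkn1c, Phlda2, Ascl2 and Kcnq1ot1 share 1 control region on chromosome 7. Cdkn1c (chromosome 7, 143012076 to 143014787) encodes p57, an inhibitor of cyclin-dependent kinases that holds cells out of division. It was at 7.97, 6.54 and 7.49 RPKM in Control and at 7.64, 7.01 and 6.68 in Middle. The groups overlapped, and the log2 fold change of -0.04 had a 95% interval of -0.24 to 0.16 (adjusted p = 0.813, limma). It was -0.13 with the GC trend removed, -0.08 without Middle replicate 1 and -0.11 without Control replicate 2, but 0.02 without Control replicate 1 and 0.00 without Middle replicate 3. Gm44732, an antisense gene model, covers 30.7% of its exon bases, and reads of the 2 genes in the shared bases cannot be told apart.

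The other genes of that region were low. Kcnq1ot1, the long paternal RNA that silences the cluster, was between 0.0397 and 0.0620 RPKM in every library, with 176 to 287 reads spread over an annotated length of 93651 bases. Ascl2, a transcription factor of trophoblast, was at 0.115, 0.0844 and 0.127 RPKM in Control and at 0.130, 0.317 and 0.153 in Middle, on 8 to 24 reads per library. Its 3 Middle libraries lay above Control, but Middle replicate 1 and Control replicate 3 were close, on 10 and 8 reads. Phlda2, which limits growth of the placenta, had 2 to 8 reads per library.

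Gnas showed the lowest p of the tested imprinted genes. Gnas (chromosome 2, 174126113 to 174188537) encodes the stimulatory G protein alpha subunit, which couples hormone receptors such as that for luteinizing hormone to cyclic AMP, and its locus also makes products from the maternal or the paternal copy alone. It was at 6.08, 7.14 and 7.31 RPKM in Control replicates 1 to 3 and at 9.44, 7.71 and 7.63 in Middle. All Middle libraries lay above all Control libraries, but Middle replicates 2 and 3 by little. The means of 6.84 ± 0.66 and 8.26 ± 1.02 RPKM (SD, n = 3 each) gave a ratio of 1.21 and a log2 fold change of 0.24 (SE 0.10, 95% interval 0.00 to 0.47, unadjusted p = 0.0481, adjusted p = 0.239, limma). Without Middle replicate 1 the log2 fold change was 0.15, and with the GC trend removed it was 0.15 as well. The table gives 1 value for the locus, so its products were not separated.

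Ube3a and Zdbf2 had the lowest fold changes. Ube3a (chromosome 7, 58878498 to 58961284), a ubiquitin ligase imprinted in neurons, was at 2.41, 2.33 and 2.20 RPKM in Control and at 1.27, 2.30 and 1.95 in Middle. Middle replicate 1 stood far below the rest, and Middle replicate 2 lay within the Control range. The log2 fold change was -0.24 (SE 0.13, 95% interval -0.55 to 0.07, adjusted p = 0.325, limma), but -0.09 without Middle replicate 1 and -0.10 with the GC trend removed. Its longest transcript had the lowest GC content of the 11 genes, 36.9%, where the median of all tested genes with a value was 49.3%. The antisense gene models 9330162G02Rik, Gm44560 and Snhg14 each overlap 8.71% to 9.82% of its exon bases, and reads in the shared bases cannot be told apart.

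Zdbf2 (chromosome 1, 63312424 to 63353735), a zinc finger protein gene whose paternal expression begins from a distant early promoter, was at 5.79, 4.61 and 5.62 RPKM in Control and at 3.43, 4.76 and 4.71 in Middle. Control replicate 2 lay below Middle replicates 2 and 3, so the groups overlapped. The means were 5.34 ± 0.64 and 4.30 ± 0.75 RPKM (SD, n = 3 each), and the log2 fold change of -0.26 (SE 0.12, 95% interval -0.55 to 0.03) did not pass (adjusted p = 0.267, limma). Without Middle replicate 1, again the lowest library, it was -0.14. The longest transcript had a GC content of 42.3%.

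**Figure D2:**
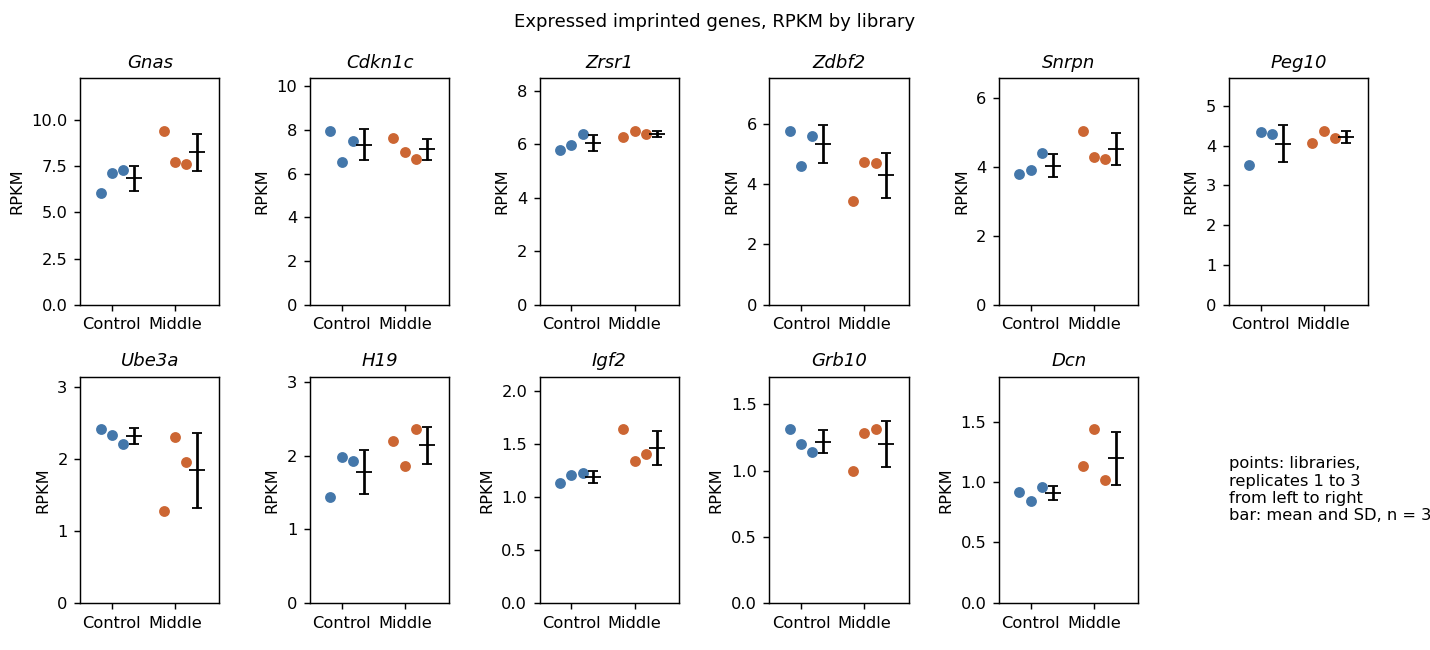
RPKM of the 11 expressed imprinted genes, 1 panel per gene, with the 3 Control libraries (blue) and the 3 Middle libraries (orange) as points from replicate 1 to replicate 3 and the mean with SD (n = 3) as a bar beside them. Middle replicate 1 is the highest library for Igf2, Snrpn and Gnas and the lowest for Grb10, Ube3a and Zdbf2.

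Zrsr1 and Snrpn encode proteins of the splicing machinery. Zrsr1 (chromosome 11, 22923215 to 22926496), a splicing factor retrogene within Commd1, was at 5.78, 5.98 and 6.39 RPKM in Control and at 6.28, 6.51 and 6.37 in Middle. Its log2 fold change of 0.07 had a 95% interval of -0.08 to 0.22 (adjusted p = 0.548, limma), and the host Commd1 stood at 11.4 and 11.7 RPKM in the group means. The groups overlapped, and 6.19% of the exon bases of Zrsr1 are also exon of Commd1 on the other strand. Snrpn (chromosome 7, 59632243 to 59789967), which encodes the SmN protein of the spliceosome, was at 3.80, 3.90 and 4.41 RPKM in Control and at 5.06, 4.29 and 4.23 in Middle. The groups overlapped through Control replicate 3, and the log2 fold change of 0.13 (SE 0.09, adjusted p = 0.393, limma) was 0.06 without Middle replicate 1. Snurf, whose 216 bases all lie within Snrpn, was at 14.7 RPKM, and a transcript of the gene model Gm5802 matches Snrpn at 95.3% over 700 bases, so part of the Snrpn value is uncertain.

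Of the other genes near Snrpn, Ndn and Mkrn3 were low. Ndn, a MAGE family protein that restrains cell growth, was at 0.547, 0.668 and 0.460 RPKM in Control and at 0.880, 0.580 and 0.585 in Middle. Its ratio of means was 1.22, and 1.04 without Middle replicate 1. Mkrn3, a makorin protein that restrains puberty in the brain, lay between 0.116 and 0.286 RPKM on 14 to 34 reads. The groups overlapped for both genes.

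Peg10 and Sgce start side by side on chromosome 6 and are both paternal. Peg10 (chromosome 6, 4747306 to 4760517), a protein gene derived from a retrotransposon, was at 3.51, 4.35 and 4.30 RPKM in Control and at 4.06, 4.38 and 4.20 in Middle. The groups overlapped, and the log2 fold change of 0.05 (95% interval -0.15 to 0.25, adjusted p = 0.747, limma) was -0.03 without Control replicate 1. Sgce, which encodes epsilon-sarcoglycan, was at 0.282 RPKM over all libraries beside 4.13 for Peg10.

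Dcn and Inpp5f also lay above the Control range in each Middle library. Dcn (chromosome 10, 97315471 to 97354005), a matrix proteoglycan that binds collagen and TGF-β and is imprinted in placenta, was at 0.920, 0.845 and 0.962 RPKM in Control and at 1.14, 1.44 and 1.01 in Middle. Each Middle library lay above each Control library, Middle replicate 2 the most. The log2 fold change was 0.20 (SE 0.09, 95% interval -0.02 to 0.41, adjusted p = 0.261, limma). With the GC trend removed it was 0.34 (adjusted p = 0.174, limma), and without Middle replicate 2 it was 0.12. The GC content of its longest transcript was 37.4%, beside 36.9% for Ube3a. The part of the GC trend in either fold change cannot be told apart from that of the exposure. Dcn is a gene of stromal cells: the 8 tested of 11 peritubular and stromal markers all lay above 0 in the same comparison, with a median log2 fold change of 0.19 and a sum of 56.1 to 63.1 RPKM in Control and 64.5 to 81.8 in Middle. Their part in the Dcn value was not tested.

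Inpp5f, a phosphoinositide phosphatase of which 1 brain variant is imprinted, was at 0.205, 0.202 and 0.210 RPKM in Control and at 0.233, 0.299 and 0.283 in Middle. The Control libraries lay close together and all Middle libraries above them, with a ratio of 1.32, but the level was under that for testing. A second fit on recovered reads (limma-voom), which took genes with at least 10 reads in 3 libraries, gave it a log2 fold change of 0.40 (SE 0.18, adjusted p = 0.267).

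That fit took in 28 of the 32 genes, of which 17 were too low for the first test. It called 0 of the 28, where it called 10 of 23889 genes (0.0419%), and an unadjusted p under 0.05 was reached by 6 of them, Gnas, Dcn, Zdbf2, Igf2, Ube3a and Inpp5f, where 17.9% of all genes reached it. The lowest adjusted p was 0.193, again for Gnas. Of the 28, 7 had all Middle libraries above all Control libraries and none the reverse, where 13.9% of all genes in that fit lay higher without overlap. The 7 were Gnas, Igf2, Dcn, Inpp5f, Plagl1, Dlk1 and Ascl2, of which the last 3 are given by library because their groups were seen not to overlap. As a share, that is 25.0% of the members, beside 23.4% of all genes that lay apart in either direction.

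Plagl1, a zinc finger factor that acts on other imprinted genes, was at 0.167, 0.171 and 0.158 RPKM in Control and at 0.178, 0.203 and 0.177 in Middle. The groups did not overlap, but lay close together, and the log2 fold change on recovered reads was 0.15 (SE 0.20, adjusted p = 0.718, limma-voom).

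The Dlk1 to Meg3 region of chromosome 12 was low in every library. Dlk1, a membrane protein related to Notch ligands and known in immature Leydig cells, was at 0.0463, 0.0545 and 0.0638 RPKM in Control and at 0.105, 0.0682 and 0.0752 in Middle, on 14 to 28 reads per library. All Middle libraries lay above Control, and the log2 fold change on recovered reads of 0.58 had an SE of 0.36 (adjusted p = 0.414, limma-voom). Meg3, the non-coding RNA of the maternal copy, was at 0.0199 RPKM and Rian, which hosts snoRNAs, at 0.00822 in the mean of all libraries. Mirg was at 0.634, 0.446 and 0.516 RPKM in Control and at 0.472, 0.4498 and 0.435 in Middle. Per length, Mirg lay above Meg3 and Rian, its maternal neighbours on the same strand, in each of the 6 libraries. The groups overlapped for Mirg, with a ratio of 0.850 (0.940 without Control replicate 1). Its row covers 7292 bases and the Mir410 hairpin makes up 1.11% of them.

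The remaining genes were low with overlapping groups. Peg13, a non-coding RNA inside Trappc9, was at 0.756, 0.765 and 0.889 RPKM in Control and at 0.858, 0.857 and 0.956 in Middle, but 27.4% of its bases are also exon of Trappc9, which stood at 5.42 RPKM. Mest, a hydrolase-like protein of mesoderm, lay at 0.260 to 0.337 RPKM, with 23.1% of its exon bases shared with Copg2 on the other strand. Impact, a regulator of the stress kinase GCN2, lay at 0.255 to 0.585 RPKM, and Peg3, a zinc finger protein of parental behaviour and growth, at 0.127 to 0.258. For both genes Middle replicate 1 was the lowest library and Middle replicate 2 the highest. Nnat, a small membrane protein of brain and endocrine cells, lay at 0.102 to 0.197 RPKM, while its host Blcap was at 3.02 in both groups. Nap1l5, a retrogene inside Herc3, had 0 to 12 reads and was listed at 0 in 2 Control libraries, above the limit of 6 reads in 3 libraries.

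The 9 tested genes assigned to 1 parent gave nearly the same median for the paternal and the maternal class. The 5 tested paternal genes had a median log2 fold change of 0.07 with 4 above 0, and the 4 tested maternal genes one of 0.07 with 2 above 0, beside 0.03 and 55.9% above 0 over all tested genes. The maternal median was 0.04 without Middle replicate 1 and 0.003 with the GC trend removed, where the paternal one was 0.07 and 0.09. The mean log2(RPKM + 1) of the paternal genes less that of the maternal genes was 0.42, 0.45 and 0.50 in Control replicates 1 to 3 and 0.50, 0.42 and 0.47 in Middle replicates 1 to 3. The 2 groups covered nearly the same range. The means were 0.46 ± 0.04 and 0.46 ± 0.04 (SD, n = 3 each), a difference of 0.006. Its sign turned without Control replicate 1 (-0.01) or Middle replicate 1 (-0.01). Of the 4 maternal genes, Ube3a and Dcn are imprinted only in some tissues or isoforms, and their class in testis was not tested. Without these, 2 maternal genes were left, with 1 fold change above 0, 1 below and a median of 0.07. Dcn was also tested only through its Middle mean.

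On recovered reads, where low genes count as much as high ones, the 17 paternal genes had a median of 0.14 with 13 above 0, where 53.8% of all genes were above 0. The 9 maternal genes had one of -0.04 with 4 above 0, and the median of all genes in that fit was 0.02. The 5 maternal genes below 0 were Cdkn1c, Ube3a and, from the Dlk1 to Meg3 region alone, Meg3, Rian and Mirg. Of the genes in this fit, the maternal Ube3a, Dcn and Ascl2 and the paternal Inpp5f are imprinted only in some tissues or isoforms. Of the 17 genes that only this fit took in, 11 lay above 0, and the difference between the classes was not tested.

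**Figure D3:**
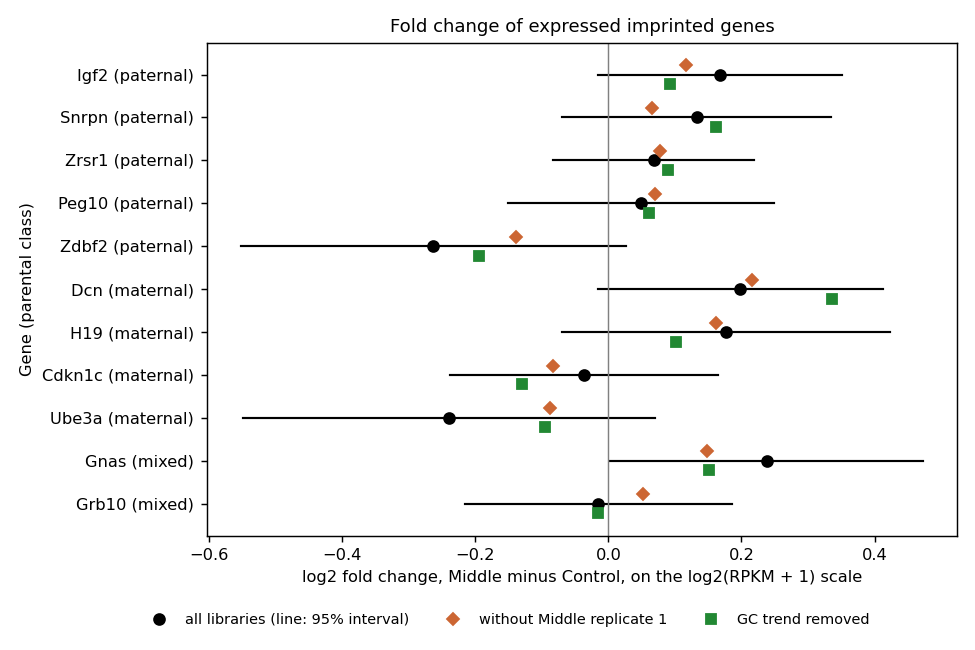
Log2 fold change, Middle minus Control, of the 11 tested imprinted genes on the log2(RPKM + 1) scale, ordered by parental class, with the 95% interval as a line, the value without Middle replicate 1 as a diamond and the value with the GC trend removed as a square. All intervals reach 0 except that of Gnas, which begins at 0.00 to 2 decimals and lies above it, and under both alternatives Ube3a and Zdbf2 lie nearer to 0 and Dcn and Cdkn1c farther from it.

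**Figure D4:**
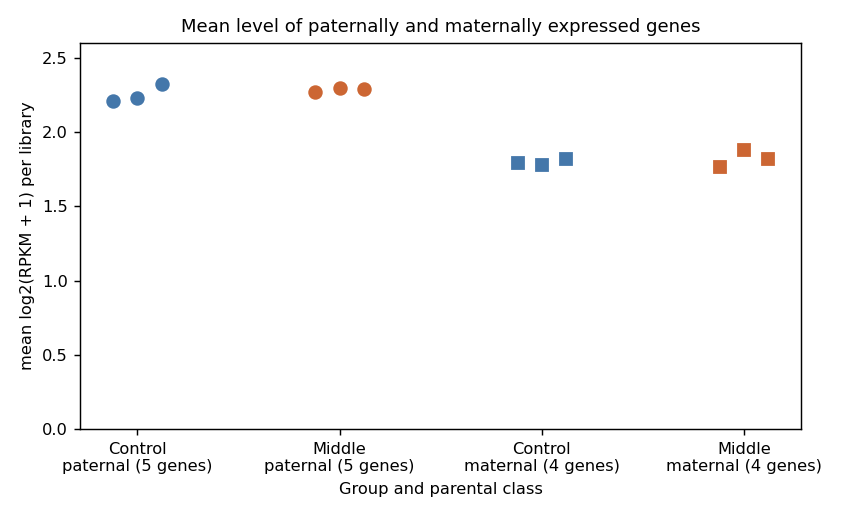
Mean log2(RPKM + 1) per library of the 5 tested paternally expressed genes (circles) and the 4 tested maternally expressed genes (squares), for Control (blue) and Middle (orange) replicates 1 to 3 from left to right. The paternal means exceed the maternal means by 0.42 to 0.50 in every library, and the groups overlap in both classes.

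The promoters of the members were searched for TGCCGC, the 6 bases that ZFP57 binds when they are methylated, on both strands (GCGGCA on the other), in the 250 bases before each annotated start. ZFP57 is a zinc finger protein that keeps imprints after fertilization. RefSeq (GRCm38.p6) gave 40 such windows for 26 of the 34 named genes. The letters were found in 7 windows (17.5%) of 6 genes, Zdbf2, Mest, Plagl1, Nap1l5, Zim1 and Meg3, where 8.68% of all 32851 windows held them. Of the 7, 2 are windows of Mest that overlap and hold the same matches. The 6 genes were 4 paternal and 2 maternal ones. The windows of Zdbf2, Mest and Plagl1 are shown because they are those of a tested gene with one of the lowest fold changes, of a gene with 2 matches and of a gene whose groups did not overlap, with the letters in capitals.
Zdbf2, chr1:63200108-63200357, + strand: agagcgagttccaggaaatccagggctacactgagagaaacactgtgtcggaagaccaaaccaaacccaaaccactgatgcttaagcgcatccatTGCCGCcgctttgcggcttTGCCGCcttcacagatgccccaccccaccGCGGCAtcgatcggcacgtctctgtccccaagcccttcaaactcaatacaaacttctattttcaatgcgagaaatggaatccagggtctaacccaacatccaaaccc
Mest, chr6:30737800-30738049, + strand: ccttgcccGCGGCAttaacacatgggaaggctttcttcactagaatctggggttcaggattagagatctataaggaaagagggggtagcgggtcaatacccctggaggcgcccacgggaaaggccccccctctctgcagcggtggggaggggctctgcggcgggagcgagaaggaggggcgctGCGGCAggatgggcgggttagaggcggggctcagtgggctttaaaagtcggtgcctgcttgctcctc
Plagl1, chr10:13090582-13090831, + strand: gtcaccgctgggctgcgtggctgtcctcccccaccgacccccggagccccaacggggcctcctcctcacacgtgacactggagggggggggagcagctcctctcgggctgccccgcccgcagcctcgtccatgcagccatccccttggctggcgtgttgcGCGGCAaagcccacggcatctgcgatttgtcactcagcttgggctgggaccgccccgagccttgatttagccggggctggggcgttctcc
The Zdbf2 window shown held 3 matches and 13 CpG sites, that of Mest 2 and 14, and that of Plagl1 1 and 19, beside a median of 10 CpG sites over the 40 windows and 6 over all windows. Another window of Zdbf2 (chr1:63273019-63273268, 26 CpG sites) and another of Mest (chr6:30733256-30733505, 7 CpG sites) held 0 matches. Which start gave the reads of these genes was not tested. A match is a description of the letters and not a binding site in these cells.

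Of 20 genes that regulate imprints, 11 were at the level for testing. None passed over all genes, 6 lay above 0 and 5 below, with a median of 0.04. Dnmt3l, which brings the DNA methyltransferases to the germline control regions, rested at 1.25 ± 0.25 (Control) and 1.80 ± 0.14 RPKM (Middle; SD, n = 3 each), with a log2 fold change of 0.32 (SE 0.10, adjusted p = 0.178, limma). The groups did not overlap for it, nor for Trim28, the cofactor of ZFP57, at 47.5 ± 2.78 and 54.8 ± 3.47 RPKM, nor for Uhrf1, which guides methylation after replication, at 19.6 ± 0.71 and 21.6 ± 0.36. These were the 3 with the smallest p of the list. In all, the groups did not overlap for 4 of the 11 genes, where 29.3% of all tested genes lay apart, and the fourth, Arid4b, was lower in Middle (1.96 and 1.55 RPKM in the group means). Its lowest library was Middle replicate 1 at 1.12 RPKM, with Middle replicates 2 and 3 at 1.79 and 1.73 beside 1.92 to 2.06 in Control. Zfp57 itself was at 6.97 and 7.55 RPKM in the group means.

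Genes of IGF and insulin signalling stood next to Igf2, Igf2r and Grb10. Of the 19, 8 were tested, 6 lay above 0, none passed and the median was 0.17. Igfbp2, an IGF-binding protein, had means of 2.58 ± 0.26 (Control) and 3.97 ± 0.39 RPKM (Middle), Igfbp6, which prefers IGF2, at 26.8 ± 1.14 and 36.01 ± 4.17, and Igfbp4 at 1.53 ± 0.26 and 2.21 ± 0.42 (SD, n = 3 each). All Middle libraries lay above Control for these 3, with adjusted p-values of 0.177, 0.178 and 0.192 (limma). They were taken for the smallest p of their list. The groups lay apart for 5 of the 8 genes, beside 29.3% of all tested genes: the other 2 were Akt1, higher in Middle (5.87 and 6.75 RPKM), and Igf2bp3, lower (13.8 and 12.8 RPKM). For Igf2bp3, Middle replicate 1 was the lowest library at 11.52 RPKM, with Middle replicates 2 and 3 at 13.41 and 13.42 beside 13.56 to 14.28 in Control.

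Other imprinted genes and neighbours of the clusters were counted from a list of 41. Of these 18 were tested, 10 lay above 0 and 8 below, none passed, and the median was 0.02 beside 0.03 over all tested genes. Cd81, a membrane protein gene near Ascl2, had means of 3.22 ± 0.15 (Control) and 3.97 ± 0.42 RPKM (Middle), with SD over 3 libraries each and an adjusted p of 0.196 (limma). Copg2, the neighbour of Mest, was at 7.52 and 8.68 RPKM and Nap1l4 at 53.9 and 60.6, with adjusted p-values of 0.219 and 0.227 (limma). The groups lay apart for 4 of the 18 genes, where 29.3% of all tested genes lay apart. Cd81, Copg2 and Nap1l4 were higher in Middle and Klhdc10 lower (6.19 and 5.81 RPKM). Among markers of testis cells, all 8 spermatid markers lay below 0 (median -0.19) and 6 of 7 tested Sertoli markers above (median 0.18), with sums of 197 to 203 RPKM in Control and 206 to 219 in Middle for Sertoli cells. The smallest p-values were those of Tssk1, Spaca7 and Tnp1 among spermatid markers (log2 fold changes of -0.33, -0.50 and -0.29), of Gata4, Rhox5 and Sox9 among Sertoli markers (0.25, 0.33 and 0.20) and of Tpm2, Acta2 and Myh11 among peritubular and stromal markers (0.39, 0.32 and 0.24). Spermatocyte markers lay below 0 for 5 of 7 tested (median -0.06), with Sycp1 at -0.76, Sycp3 at -0.30 and Spo11 at 0.18. The 3 tested spermatogonium markers all lay above 0 (median 0.31), with Stra8 at 0.33, Uchl1 at 0.31 and Dmrt1 at 0.14. Of 8 tested Leydig markers 5 lay above 0 and 3 below, with Star at -0.62, Nr5a1 at 0.25 and Insl3 at 0.16. None of the markers passed, and their part in the values of the imprinted genes was not tested. Of the 4 epididymal markers, Rnase10 was at 1.51 ± 0.06 (Control) and 1.83 ± 0.52 RPKM (Middle; SD, n = 3 each), Defb41 at 0.610 and 0.485, and Lcn9 and Crisp1 at 0.0503 RPKM or less in every library, and the 4 summed to 1.62 to 2.99 RPKM per library. Of 5 fat cell markers only Adipoq was tested, at 2.89 and 2.09 RPKM.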

How the data were processed

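Total RNA of mouse testis was made into messenger RNA libraries, per the labels' protocols. The authors deposited RPKM values per gene for 6 libraries, with gene positions and lengths, per the file headers. The build is GRCm39 and reads were trimmed with fastp 0.23.0, per the submitters' processing notes. Aligner, counter and strand setting are not named there. RPKM times length gave whole reads for 100.0% of values (tolerance 0.001). The limit that a count of 0 allows is 3 fragments, or 6 reads, since most low counts were even numbers, and it covers counting error only.

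Genes reaching 1 RPKM in the mean of either group were tested on log2(RPKM + 1) with limma 3.58.1 (R 4.3.3), Benjamini-Hochberg adjusted over all 15040 genes. The model held the 2 groups of 3 libraries and was run on simulated data. The simulation gave all genes the same dispersion, with no library apart and no GC trend, so it does not show how the model does on these libraries. Alternatives were limma-voom on recovered reads, other filters, scaling and pseudocount, a replicate block and leaving out each library. Removing each library's trend on transcript GC content and the limma-voom fit with at least 10 reads in 3 libraries were chosen after seeing the data. The members and lists were chosen with earlier results of these data known. Every member was accounted for: tested genes, the 4 highest untested ones and untested ones with groups apart and at least 0.2 RPKM were given by library, and of other lists described by fold change the 3 tested genes of smallest p. Shared exon bases and transcript GC content came from GENCODE M21 models and the deposited positions, and similar transcripts from blastn 2.17.0.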

Additional observations from a re-analysis of the deposited data

How the results depend on the processing

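None of the imprinted genes passed under any of the 14 settings tried, in which the lowest adjusted p of a tested gene was 0.143 (limma). Of 154 values of the 11 genes, 149 kept their sign and 5 changed it: leaving out 1 library moved Grb10 between -0.053 and 0.052, Cdkn1c between -0.107 and 0.018 (0.018 without Control replicate 1, 0.0013 without Middle replicate 3) and Peg10 between -0.030 and 0.093. Grb10 was 0.016 without Control replicate 1. The count of all genes called, 8, was 0 with no filter and 0 with the replicate block, and 0 to 3 on leaving out 1 library (3 without Control replicate 1, 1 without Middle replicate 1, 0 without each of the others). Same-numbered libraries were no more alike than others: their departures from the group means had correlations of -0.15, -0.12 and 0.01, beside -0.09 to 0.16 for the other pairs. With 3 libraries a group, these values do not settle whether replicate numbers pair the libraries. The paternal median was 0.14 in the limma-voom fit of genes with 10 reads in 3 libraries. The maternal median was -0.040 there, 0.12 with limma-voom on the tested genes, -0.0020 with no filter, 0.021 with a filter of 1 CPM, 0.0029 with the GC trend removed and 0.033 to 0.125 on leaving out 1 library. The difference between groups in paternal minus maternal level was -0.0018 with a pseudocount of 0.1 and -0.014 to 0.030 on leaving out 1 library. With the CPM filter 22 imprinted genes were tested in place of 11. With 3 libraries a group, low genes such as Phlda2, Airn and Zim1 cannot be compared at this depth.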
